A study of Mus musculus with 19 samples.

Results

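Gene expression in obstructed mouse kidneys treated with zalfermin was compared with that in healthy mouse kidneys, to describe what remained away from the healthy state under the drug, what was at the healthy level and what differed from healthy with the drug but not with vehicle. The comparison rests on 12 of the 19 libraries of the series, namely the 8 whose label gives the coded drug as treatment and the 4 labelled as healthy and not treated. The other 7 libraries, from obstructed kidneys given vehicle, entered the same model and serve below to place each residual difference. Zalfermin is a long-acting analogue of the hormone FGF21 per the series title, and UUO, the model named in the series design, commonly stands for unilateral ureteral obstruction. All 3 groups were whole kidney, with total RNA sequenced. The zalfermin group carried the obstruction and the drug, the vehicle group the obstruction and vehicle, and the healthy group neither, although the series design calls its animals vehicle-treated where the labels say they had no treatment. The sample labels name the disease of both obstructed groups MASH, a liver disease, where the series design names UUO. Neither the labels nor the design text give strain, sex, age, dose, length of treatment or day of collection. They also do not say that each library came from its own animal, so the p-values below measure the spread between libraries, part or all of which could be technical.

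Obstruction of the ureter raises pressure in the kidney, injures and dilates the tubules, draws in leukocytes and turns resident fibroblasts and pericytes into myofibroblasts, which lay down collagen. Injured proximal tubule cells lose transporters and mitochondria and switch on proteins such as KIM-1 and osteopontin. FGF21 signals through an FGF receptor paired with the co-receptor beta-klotho (Klb), which is best known from liver and fat.

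Levels are in CPM, the reads of a gene scaled to a common library size with TMM factors, and differences are log2 fold changes with their standard error. A gene is called where edgeR's quasi-likelihood test gave a Benjamini-Hochberg adjusted p below 0.05 over the 16026 tested genes. Libraries held 12209122 to 14844103 counts. The tissue label held in the zalfermin group in that 7 of 7 kidney markers (Umod, Lrp2, Slc12a1, Slc12a3, Aqp2, Nphs1 and Slc34a1) were detected, with a summed level of 5748 to 7850 CPM against 19110 to 19600 CPM in healthy libraries, while 6 liver markers summed to 43.2 to 105.6 CPM. Mitochondrially encoded genes took 2.95% to 4.25% of the counts in zalfermin libraries and 8.77% to 10.2% in healthy ones. Vehicle replicate 6 stood apart from the other libraries. Counts of genes moved toward healthy, further away, back at healthy or new with zalfermin are given with and without it. Other counts that rest on the vehicle group, such as the calls between zalfermin and vehicle, include it.

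The zalfermin-treated obstructed kidneys remained far from healthy. Between the 8 zalfermin and the 4 healthy libraries 10298 genes (64.3% of those tested) were called, 5976 of them higher (37.3%) and 4322 lower (27.0%) than healthy. The difference was at least 2-fold for 3031 higher and 1611 lower genes, and at least 4-fold for 1462 and 343. In 8051 of the called genes (78.2%) the groups did not overlap, with all 8 zalfermin libraries above or below all 4 healthy ones. Over all 16026 tested genes, called or not, the 8 lay above the healthy range in 4718 and below it in 3481. A lack of overlap in a single gene below was therefore common among tested genes. Against the same healthy libraries, vehicle-treated kidneys had 10387 called genes (64.8%), and zalfermin differed from vehicle in 290 (1.81%). These 3 comparisons share their libraries, so their counts are not independent of each other. Across the 16026 genes the zalfermin-to-healthy difference had a median of 0.13 on the log2 scale. Without vehicle replicate 6, which enters the model but not this comparison, 5920 genes were called higher and 5168 lower than healthy (median 0.06). With the 2 groups fitted alone the counts were 5754 and 5132 (median 0.05).

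The root mean square distance over tested genes to the healthy mean, in log2 CPM, was 1.13 to 1.32 for the 8 zalfermin libraries and 1.21 to 1.34 for the 7 vehicle libraries, against 0.372 to 0.457 for each healthy library measured to the other 3. Zalfermin replicate 6 lay farthest from healthy and replicate 2 nearest, and the ranges of the obstructed groups overlapped. Zalfermin replicates 1, 2, 5 and 8, at 1.13 to 1.17, lay nearer to healthy than any vehicle library, and the difference between the obstructed groups in this distance was not tested.

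**Figure D1:**
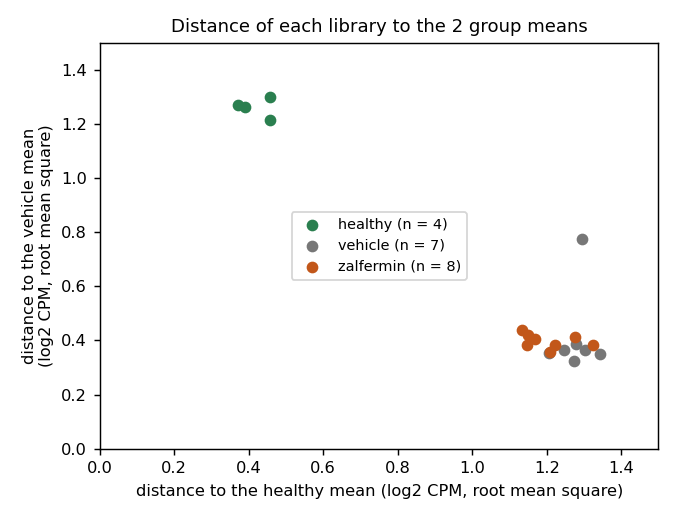
Each point is a library, placed by its root mean square distance in log2 CPM to the healthy mean (x axis) and to the vehicle mean (y axis), with a library left out of its own group's mean. The 8 zalfermin libraries lie at 1.13 to 1.32 from healthy, 4 of them nearer than the nearest vehicle library at 1.21, and the 4 healthy libraries lie at 0.372 to 0.457, and the vehicle library at 0.775 from the vehicle mean is replicate 6.

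Of the 10387 genes called in vehicle-treated kidneys, 9369 (90.2%) were called in the same direction with zalfermin. For 9154 of these the drug made no called difference, 173 had moved toward healthy and 42 had moved further away. By contrast 27 genes were back at the healthy level, defined as a called move off the vehicle level, no call against healthy, and a 95% interval within 1.5-fold of healthy. A further 531 were called with vehicle and lay within that band with no called drug difference, and 460 more were no longer called but had intervals too wide to say. New differences, called against healthy and against vehicle where vehicle itself lay within 1.5-fold of healthy, numbered 14. Without vehicle replicate 6 the classes held 342 genes moved toward healthy, 61 further away, 43 back and 27 new. Other single libraries moved them as well: the count toward healthy was 106 without vehicle replicate 2, 83 without vehicle replicate 7, and 90, 100 and 86 without zalfermin replicates 2, 4 and 5. The count further away was 24, 20, 24 and 26 without zalfermin replicates 2, 4, 5 and 7, the count back at healthy was 15 without vehicle replicate 7, and the count of new genes was 7 without vehicle replicate 2, 6, 7, 9 and 9 without zalfermin replicates 2, 4, 5 and 7, and 9 without healthy replicate 3. In bulk tissue, fewer cells of a type and less RNA per cell cannot be told apart, here and in every result below.

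Gene lists by cell type and pathway were read as counts of called members against the 37.3% and 27.0% of all tested genes. For edgeR calls between zalfermin and vehicle the share of all tested genes was 1.81%. No such share is given for unadjusted p values or for DESeq2 calls. List counts of those 2 kinds therefore cannot be read as particular to a list. Of 49 lists with at least 4 tested members, 21 had more than 50% of members called higher than healthy and 18 had more than 50% called lower.

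**Figure D2:**
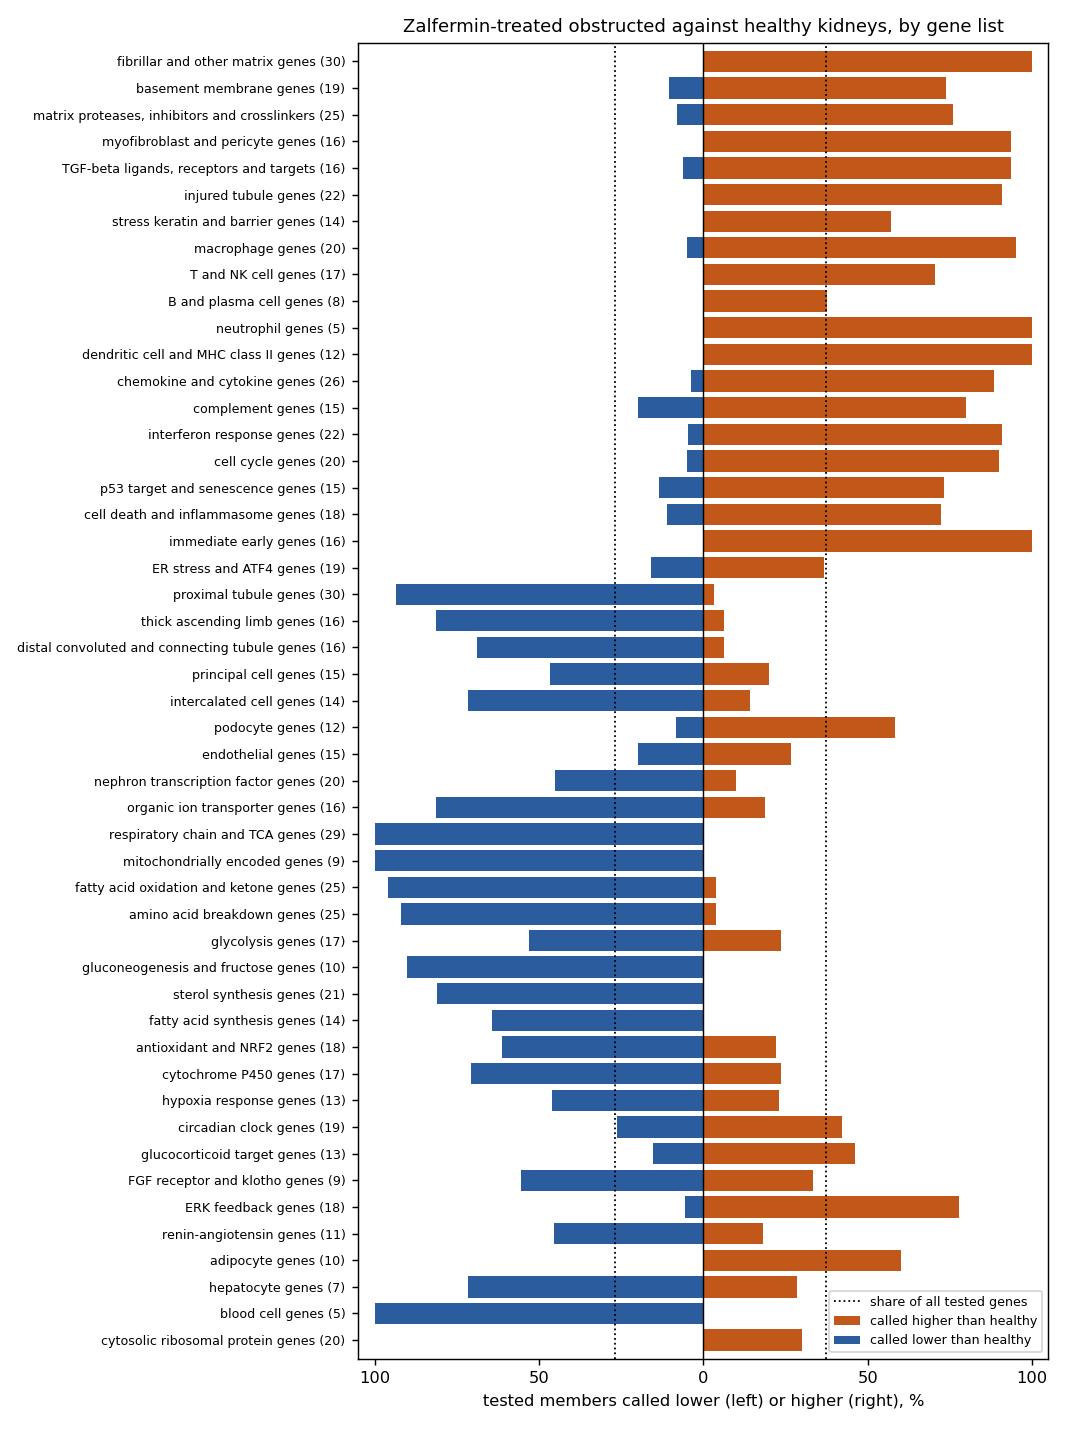
Bars give, for each gene list (tested members in brackets), the percentage of tested members called higher (right, orange) or lower (left, blue) in the 8 zalfermin against the 4 healthy libraries, and dotted lines give the shares of all tested genes, 37.3% and 27.0%. Matrix, neutrophil, MHC class II and immediate early lists are entirely on the right, and the respiratory chain, mitochondrially encoded and blood cell lists entirely on the left.

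The scar matrix stayed high in every one of 30 matrix genes tested, with a median log2 fold change of 2.41. Col1a1, which encodes the main chain of type I collagen (ENSMUSG00000001506, chromosome 11, 94936224-94953042, plus strand, GRCm38), was at 24.5, 27.6, 22.2 and 21.8 CPM in the 4 healthy libraries and at 298 to 498 CPM (median 428) in the 8 zalfermin libraries. That is a 17.1-fold rise (4.10 ± 0.18, edgeR adjusted p = 5.79e-13), with the lowest treated library far above the highest healthy one. Col3a1, the type III collagen chain, stood 18.4-fold above healthy (4.20 ± 0.17, adjusted p = 2.69e-13). Fn1, the gene of fibronectin (chromosome 1, 71585520-71653200, minus strand), was at 30.9, 26.8, 25.3 and 25.6 CPM in healthy and 293 to 460.5 CPM (median 398) in zalfermin kidneys, 13.9-fold higher (3.797 ± 0.13, adjusted p = 2.92e-14). Neither gene overlapped between the groups. The summed level of the list was 1008 to 1268 CPM in healthy and 5057 to 7297 CPM in zalfermin libraries.

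Of the 30 matrix genes, 15 had moved toward healthy from the vehicle level without reaching it. They were Col1a1, Col1a2, Col3a1, Col5a1, Col6a1, Col6a2, Col6a3, Col15a1, Col16a1, Fn1, Sparc, Thbs2, Bgn, Fbn1 and Eln, a set named after its values were seen. Vehicle kidneys held Col1a1 at 560.0 to 1244 CPM (median 648), above the zalfermin range in every library, and the drug difference was -0.86 ± 0.14 (adjusted p = 0.00301), small beside the residual 4.10. Eln, which encodes elastin, had come closest of these 15 to healthy, with 1.71 in vehicle and 0.77 in zalfermin kidneys. Mfap4, a microfibril protein, and Dpt, dermatopontin, were among the 8 genes with the clearest move toward healthy: Mfap4 fell from 4.29 to 3.09 and Dpt from 2.97 to 1.97. With 1 library left out, Col6a3, Col15a1, Thbs2, Bgn and Fbn1 could lose the call of the drug difference (highest adjusted p = 0.104, 0.0816, 0.0795, 0.0843 and 0.0693), and the other 10 kept it. The median over the list was 2.97 in vehicle kidneys against the 2.41 with zalfermin.

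Enzymes that cut and crosslink matrix remained raised too. Among 25 proteases, inhibitors and crosslinking enzymes 19 were called higher and 2 lower (median 2.695). Adamts1, a secreted protease, rose from 58.8, 35.3, 51.4 and 38.3 CPM to 403 to 561 CPM (median 487), and Mmp14, the membrane-bound collagenase, from 9.34, 9.86, 8.68 and 7.27 CPM to 69.6 to 113 CPM (median 85.8). For neither gene did the groups overlap, with differences of 3.40 ± 0.13 and 3.31 ± 0.13 (adjusted p = 7.37e-14 and 2.96e-14). Mmp14 was 1 of 4 members that had moved toward healthy, with a drug difference of -0.55 (adjusted p = 0.00356). The other 3, Mmp2, Adamts2 and Loxl2, each lost that call with some library left out (highest adjusted p = 0.0938, 0.0581 and 0.0749). Timp3, an inhibitor bound to matrix, went the other way and fell from 2392, 2369, 2276 and 3084 CPM to 1015 to 1457 CPM (median 1123) (-1.12 ± 0.12, adjusted p = 1.79e-08).

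Basement membrane genes were mostly higher, with 2 chains lower. Of 19 tested, 14 were called higher and 2 lower (median 1.06). Col4a1, a chain of all basement membranes, rose 4.01-fold (2.003 ± 0.10, adjusted p = 1.92e-12), while Col4a3, a chain of the glomerular and tubular membrane network, fell from 468, 319, 379.6 and 399 CPM to 117 to 188 CPM (median 141) (-1.43 ± 0.14, adjusted p = 2.72e-09), with Col4a4 the other member called lower. Against vehicle edgeR called 0 of the 19, with 5 at an unadjusted p below 0.05 and 2 called by DESeq2.

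Myofibroblast and TGF-beta genes stayed raised in zalfermin kidneys. Of 16 myofibroblast and pericyte genes 15 were called higher, and Rgs5 was the 1 not called (median 1.63, against 1.93 in vehicle kidneys). Between zalfermin and vehicle edgeR called 0 of them, with 6 at an unadjusted p below 0.05 and 4 called by DESeq2. Acta2, smooth muscle actin, was at 42.2, 49.99, 40.6 and 42.1 CPM in healthy and 76.7 to 223 CPM (median 110.3) in zalfermin kidneys (1.48 ± 0.25, adjusted p = 3.64e-05), which do not overlap. Vim, the intermediate filament vimentin, rose 4.84-fold (2.28 ± 0.11, adjusted p = 5.70e-13). Of 16 ligands, receptors and targets of TGF-beta 15 were called higher and Bmp7, a bone morphogenetic protein of the tubules, was called lower (-1.36 ± 0.12, adjusted p = 1.66e-09). Tgfb1, the main ligand, was at 16.5, 12.3, 12.4 and 11.3 CPM in healthy and 50.2 to 75.5 CPM (median 58.8) in treated kidneys, 4.71-fold higher (adjusted p = 7.98e-12). Tgfb3 was the 1 member with a called move toward healthy (2.62 in vehicle, 1.97 with zalfermin), kept in 13 of 19 with 1 library left out (highest adjusted p = 0.0711). Fibroblast marker genes (Pdgfra, Pdgfrb, Dcn and Col1a1) summed to 97.6 to 167 CPM in healthy and 603 to 942 CPM in zalfermin libraries, with 4 of 4 called higher, and their part in the matrix result was not tested.

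**Figure D3:**
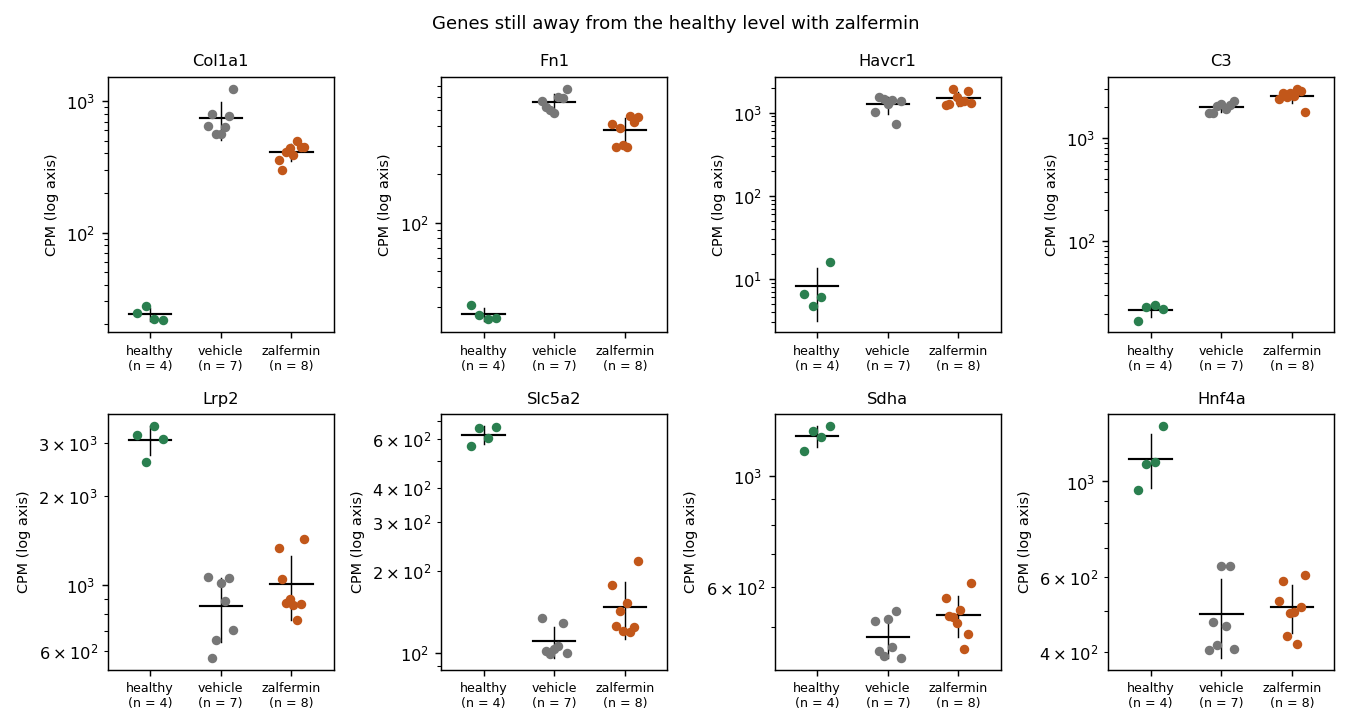
Points are libraries, with the group mean as a horizontal line and 1 SD as a vertical line, for 8 genes in CPM on log axes. Col1a1, Fn1, Havcr1 and C3 sit above every healthy library in all 8 zalfermin libraries, and Lrp2, Slc5a2, Sdha and Hnf4a sit below.

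Tubule injury genes stayed far above healthy. Of 22 tested, 20 were called higher (median 2.35), and the 2 not called were Krt7 and Il18. Havcr1, which encodes KIM-1, the injury receptor of proximal tubule cells (chromosome 11, 46735080-46779578, plus strand), was at 6.49, 4.71, 5.99 and 15.9 CPM in healthy libraries and at 1238 to 1937 CPM (median 1363) with zalfermin. The rise was 180.4-fold (7.50 ± 0.25, adjusted p = 7.88e-14), and the drug difference of 0.24 ± 0.19 was not called (adjusted p = 0.567). Lcn2, the gene of NGAL, went from 4.80, 4.53, 3.12 and 8.45 CPM to 218 to 467 CPM (median 355), 69.5-fold higher (adjusted p = 2.05e-13). Vcam1, an adhesion molecule that failed-repair proximal tubule cells carry, was 60.9-fold higher (5.93 ± 0.17, adjusted p = 3.71e-15). Spp1, which encodes osteopontin, stood 20.2-fold above healthy (4.33 ± 0.16, adjusted p = 1.32e-13). None of these 4 genes overlapped between treated and healthy kidneys.

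Krt20, a keratin of stressed and urothelial epithelium, was further from healthy than with vehicle. Its level was 0.267, 0.0888, 0.169 and 0.0982 CPM in healthy kidneys, 42.7 to 70.02 CPM (median 56.7) with vehicle and 51.04 to 124 CPM (median 90.5) with zalfermin, and the drug difference was 0.69 ± 0.14 (adjusted p = 0.0108). Among 14 stress keratin and barrier genes 8 were called higher, and the 6 not called were Psca and the uroplakins Upk1a, Upk1b, Upk2, Upk3a and Upk3b. Sprr2f, a squamous barrier protein, had 1183 reads over the zalfermin and 0 over the healthy libraries, at least 202-fold higher with a floor of 3 reads over the healthy group. The 6 urothelial markers summed to 11.98 to 27.8 CPM in healthy and 19.6 to 60.4 CPM in zalfermin libraries, with 2 of 6 called higher, and their part in the keratin result was not tested.

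Macrophage, neutrophil and MHC class II genes remained high. Of 20 macrophage genes 19 were called higher and Mertk lower (median 3.47). Adgre1, the F4/80 antigen, was at 7.12, 5.59, 4.13 and 5.21 CPM in healthy and 45.5 to 87.4 CPM (median 58.5) in zalfermin kidneys, 11.2-fold higher (3.48 ± 0.19, adjusted p = 3.20e-12). Cd14, the co-receptor for bacterial lipopolysaccharide, and C1qc, a chain of complement C1q made by macrophages, rose 13.97-fold and 10.5-fold (adjusted p = 1.16e-14 and 7.88e-14). Mertk, a receptor for dying cells, was -0.33 ± 0.11 (adjusted p = 0.0101), and it missed the threshold without healthy replicate 4 (adjusted p = 0.0538). All 12 dendritic cell and MHC class II genes were called higher, among them Cd74, the class II invariant chain, 6.53-fold higher (2.71 ± 0.13, adjusted p = 8.71e-13), and H2-Eb1 was the 1 member moved toward healthy, a call kept in 4 of 19 with 1 library left out (highest adjusted p = 0.111). Neutrophil genes were called higher in 5 of 5 tested.

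Of 17 T and NK cell genes 12 were called higher (median 1.61), against 15 in vehicle kidneys, and the 5 not called with zalfermin were Cd3d, Trac, Gzma, Gzmb and Prf1. Il2rb, an interleukin-2 receptor chain, was at 1.16, 1.42, 2.19 and 1.96 CPM in healthy and 2.49 to 9.31 CPM (median 5.17) in treated kidneys (1.68 ± 0.30, adjusted p = 4.11e-05). Lck, the T cell receptor kinase, was 1.77 ± 0.28 (adjusted p = 7.51e-06). The difference between the counts of 12 and 15 was not tested, and edgeR called 0 of the 17 between zalfermin and vehicle, with 8 at an unadjusted p below 0.05 and 0 called by DESeq2. Of 8 B and plasma cell genes 3 were called higher, a share near the 37.3% of all tested genes, with Ighm, the heavy chain of IgM, at 1.81 ± 0.17 (adjusted p = 7.48e-09).

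Chemokine and complement genes were raised as well. Of 26 chemokine and cytokine genes 23 were called higher and Cxcl12 lower (median 3.30). Ccl2, which draws in monocytes, rose from 0.356, 0.444, 0.422 and 1.08 CPM to 22.7 to 44.9 CPM (median 29.8) (5.74 ± 0.37, adjusted p = 2.75e-13), and Cxcl16 rose 4.12-fold (adjusted p = 2.69e-13). Il1b, which encodes interleukin-1 beta, was the 1 member moved toward healthy (3.04 in vehicle and 2.02 in zalfermin kidneys). Cxcl12, a stromal chemokine, was at -0.66 ± 0.21 (adjusted p = 0.00907) and missed the threshold once healthy replicate 1 was left out (0.0880). C3, the central complement component (chromosome 17, 57203970-57228136, minus strand), was at 17.1, 23.1, 24.1 and 22.1 CPM in healthy and 1770 to 3000 CPM (median 2623) in treated kidneys, 119-fold higher (6.89 ± 0.13, adjusted p = 1.74e-17), with no overlap. Of 15 complement genes 12 were called higher and 3 lower, and those 3 were Cfb and the complement inhibitors Cd55 and Cd59a.

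Interferon-stimulated genes stayed above healthy, and 5 of them had moved toward it. Of 22 tested, 20 were called higher and 1 lower (median 1.36), and Irf7, Isg15, Oas1a, Oasl2 and Bst2 had a called move toward healthy. Oasl2, of the oligoadenylate synthetase family, was at 9.96, 8.26, 6.998 and 8.54 CPM in healthy, 34.6 to 46.7 CPM (median 44.4) in vehicle and 24.2 to 40.8 CPM (median 32.3) in zalfermin kidneys. Its residual was 1.94 ± 0.13 (adjusted p = 3.70e-11), after a drug difference of -0.38. Isg15, a ubiquitin-like modifier, kept a difference of 1.24 of its 1.90 with vehicle, and Bst2, which tethers budding virus, kept 1.54 of 1.95. With each of the 19 libraries left out in turn, Irf7 and Isg15 kept the call of the move, Oas1a kept it in 18 (highest adjusted p = 0.0516), and Oasl2 and Bst2 each in 6 (0.0972 and 0.103). Rsad2, which encodes viperin, went down instead, from 64.1, 62.4, 48.2 and 48.6 CPM to 31.1 to 53.4 CPM (median 39.4) (-0.49 ± 0.17, adjusted p = 0.0131), with 1 of 8 treated libraries in the healthy range. Rsad2 lost its call when healthy replicate 1 or 2 was left out (adjusted p = 0.0547 and 0.0514).

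The promoter windows of these genes are shown because 20 of the 22 interferon genes were called in 1 direction. In the RefSeq windows of 250 bases before to 50 after the start site (GRCm38.p6), the interferon-response element core GAAANNGAAA, searched on both strands, occurred in 8 of 15 interferon genes with a window (53.3%) and in 465 of 11888 tested genes (3.91%). The 3 stretches around the matches are printed 5′ to 3′ on the gene's strand, with each match in capitals. Isg15 holds 3 matches and Bst2 2, each overlapping the next, and Rsad2 holds 1, on the opposite strand. Their positions are chr4:156200867-156200916 for Isg15 (minus strand), chr8:71537573-71537622 for Bst2 (minus strand) and chr12:26456543-26456592 for Rsad2 (minus strand).
Isg15: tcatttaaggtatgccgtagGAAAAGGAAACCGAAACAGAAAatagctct
Bst2: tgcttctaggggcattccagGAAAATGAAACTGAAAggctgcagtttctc
Rsad2: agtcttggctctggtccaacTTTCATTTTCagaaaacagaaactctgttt
The match is a description of letters. Isg15 and Bst2 were higher than healthy and Rsad2 lower, although all 3 windows hold it.

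Proliferation and stress genes were still raised. Of 20 cell cycle genes 18 were called higher and Ccnd1 lower (median 2.47). Top2a, topoisomerase of dividing cells, went from 2.40, 4.17, 3.96 and 4.91 CPM to 27.8 to 49.9 CPM (median 38.2) (3.35 ± 0.19, adjusted p = 3.32e-12), and Mcm3, a replication licensing factor, rose 5.44-fold (adjusted p = 5.04e-12). Ccnd1, the cyclin D1 gene, was at -0.37 ± 0.13 (adjusted p = 0.0161), and missed the threshold once healthy replicate 2 or 3 was left out (0.0602 and 0.0563). Cdkn1a, which encodes the arrest protein p21, was 4.89-fold higher, and of 15 p53 target and senescence genes 11 were called higher and 2 lower. Immediate early genes were called higher in 16 of 16 (median 2.12). Atf3, a stress transcription factor, rose from 1.69, 1.78, 1.01 and 1.57 CPM to 24.4 to 38.8 CPM (median 32.7). It and Fosb had moved toward healthy, in 6 and 11 of 19 with 1 library left out (highest adjusted p = 0.109 and 0.0830), and Klf4 had moved further away (1.52 in vehicle and 2.04 with zalfermin). Cell death and inflammasome genes were called higher in 13 of 18 and lower in 2, with the higher ones including Bak1 (1.55 ± 0.10) and Gsdmd (2.03 ± 0.15), a membrane pore protein. Endoplasmic reticulum stress and ATF4 genes lay near the background, with 7 higher and 3 lower of 19.

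Nephron genes stayed low, the proximal tubule most uniformly. Of 30 proximal tubule genes 28 were called lower, Slc13a1 was higher and Slc5a1 was not called (median -1.51). Against vehicle edgeR called 6 of the 30, with 20 at an unadjusted p below 0.05 and 11 called by DESeq2. Lrp2, the gene of the endocytic receptor megalin (chromosome 2, 69424340-69586065, minus strand), was at 3198, 2603, 3420 and 3099 CPM in healthy and 763 to 1432 CPM (median 883) in treated kidneys (-1.61 ± 0.18, adjusted p = 3.40e-08), without overlap. Slc5a2, the glucose transporter SGLT2 (chromosome 7, 128265657-128272430, plus strand), was 4.24-fold lower, at 567, 658, 607 and 664 CPM against 119.7 to 216 CPM (median 134) (adjusted p = 8.66e-12). Slc34a1, the phosphate transporter, was 4.85-fold lower (adjusted p = 5.74e-09). The transporters Slc5a12 (lactate), Slc2a2 (glucose), Slc6a19 and Slc7a7 (amino acids) had moved toward healthy, the first 2 with a highest adjusted p of 0.0573 and 0.0521 once 1 library was left out. Of these, Slc6a19, the neutral amino acid transporter, went from -2.94 in vehicle to -1.83 in zalfermin kidneys (drug difference 1.11 ± 0.20, adjusted p = 0.00689).

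Slc5a1, the glucose transporter SGLT1, was the exception, not called against healthy, with 0.01 and a 95% interval of -0.21 to 0.22. Slc13a1, the sulphate transporter, was above healthy and further from it than with vehicle. It was at 353, 331, 358 and 333 CPM in healthy, 353 to 692 CPM (median 620.0) with vehicle and 684 to 1024 CPM (median 786) with zalfermin (1.23 ± 0.13 against healthy, adjusted p = 9.80e-08), though its drug difference reached adjusted p = 0.0778 with 1 library left out. Organic ion transporters were called lower in 13 of 16 and higher in 3, the last being the efflux pumps Abcc4, Abcb1a and Abcb1b. Slc47a1, the proton-coupled cation exporter MATE1, fell 3.16-fold (-1.66 ± 0.13, adjusted p = 1.31e-10).

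Distal segments were low as well. Of 16 thick ascending limb genes 13 were called lower and Cldn14 higher (median -1.47), and of 16 distal convoluted and connecting tubule genes 11 were lower and Trpv5 higher (median -1.10). Egf, the growth factor precursor made by distal tubules (chromosome 3, 129677565-129755316, minus strand), was at 2390, 2222, 2386 and 2618 CPM in healthy and 50.9 to 463 CPM (median 164) in treated kidneys (-3.76 ± 0.55, adjusted p = 2.20e-06). The treated libraries spread widely for Egf, yet the highest of them was far below every healthy one. Umod, which encodes uromodulin, fell from 5909, 6666, 5844 and 5888 CPM to 3103 to 4119 CPM (median 3495) (-0.77 ± 0.13, adjusted p = 8.56e-06). Kcnj1, the potassium channel ROMK, was 2.79-fold lower (adjusted p = 4.80e-11), and Pvalb, a calcium buffer of the early distal convoluted tubule, had 4 reads over the zalfermin and 860 over the healthy libraries, 420-fold lower (counting interval 163 to 1543). Its fitted log2 difference moved from -8.78 to -9.40 without zalfermin replicate 5 and to -9.38 without replicate 8. Trpv5, the calcium channel, rose from 23.8, 19.2, 20.4 and 28.6 CPM to 66.6 to 109.6 CPM (median 72.7) (1.82 ± 0.17, adjusted p = 1.59e-08).

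Collecting duct genes were mixed. Principal cell genes were called lower in 7 of 15 and higher in 3, and intercalated cell genes lower in 10 of 14 and higher in 2. Aqp2, the vasopressin-regulated water channel, fell from 488, 369, 238 and 275 CPM to 81.3 to 188 CPM (median 131) (-1.40 ± 0.28, adjusted p = 1.06e-04), and Gata3, a collecting duct transcription factor, rose 1.79-fold (adjusted p = 1.02e-06). Aqp4, a basolateral water channel, had moved toward healthy (-2.41 in vehicle, -1.31 with zalfermin), a call kept in 16 of 19 with 1 library left out (highest adjusted p = 0.0611).

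Podocyte genes were more often called higher than lower. Endothelial genes were called in both directions, in each below the share of all tested genes (37.3% higher and 27.0% lower). Of 12 podocyte genes 7 were called higher and 1 lower (median 0.55). Nphs1, which encodes nephrin, was within the healthy band, at 27.8, 30.9, 27.1 and 38.01 CPM in healthy and 25.8 to 32.1 CPM (median 28.5) in treated kidneys, with a difference of -0.10 ± 0.12 (95% interval -0.35 to 0.15, adjusted p = 0.484). With offsets for GC content and transcript length Nphs1 was called lower (-0.34, adjusted p = 0.00586). Of 15 endothelial genes 4 were called higher and 3 lower, with Cdh5, VE-cadherin, at 0.75 ± 0.14 and Kdr, the main VEGF receptor, at -0.74 ± 0.14. Vegfa, its ligand, was 2.18-fold lower (-1.12 ± 0.11, adjusted p = 4.16e-09). Of 20 nephron transcription factors 9 were called lower and 2 higher. Hnf4a, which maintains the proximal tubule (chromosome 2, 163506808-163572910, plus strand), was at 955, 1101, 1113 and 1346 CPM against 418 to 605 CPM (median 502) (-1.15 ± 0.14, adjusted p = 8.75e-08), with no overlap, while Pax8 was called higher (0.50 ± 0.09).

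Mitochondrial energy genes were low throughout the lists. All 29 respiratory chain and TCA cycle genes were called lower (median -1.22), and so were the 9 mitochondrially encoded genes tested (median -1.87). Those 9 were part of a list of 15 and included the ribosomal RNAs mt-Rnr1 and mt-Rnr2. The members mt-Nd3, mt-Nd4l, mt-Co2, mt-Co3, mt-Atp6 and mt-Atp8 were not among the tested genes. Against vehicle edgeR called 0 of the 29, with 1 at an unadjusted p below 0.05 and 0 called by DESeq2, and 0 of the 9, with 0 at an unadjusted p below 0.05 and 0 called by DESeq2. Sdha, a subunit of succinate dehydrogenase (chromosome 13, 74322254-74350280, minus strand), was at 1124, 1228, 1198 and 1257 CPM in healthy and 452 to 612 CPM (median 525) in treated kidneys (-1.19 ± 0.09, adjusted p = 6.65e-11). The mitochondrially encoded mt-Nd4, a complex I subunit, was 4.37-fold lower (adjusted p = 8.32e-10). Ppargc1a, the coactivator that drives mitochondrial biogenesis, fell from 131, 96.96, 100.5 and 90.8 CPM to 52.5 to 78.8 CPM (median 65.9) (-0.70 ± 0.13, adjusted p = 7.06e-05). The groups of these 3 genes did not overlap.

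Fuel enzymes were low too. Of 25 genes of fatty acid oxidation and ketone use 24 were called lower and 1 higher (median -1.45, against -1.28 in vehicle kidneys). Oxct1, which burns ketones, was 4.73-fold lower and Acat1 5.78-fold lower (adjusted p = 1.36e-12 and 8.48e-13). Amino acid breakdown was called lower in 23 of 25 and higher in 1 (median -1.70), with Hpd, Gldc and Glul moved toward healthy (Hpd in 7 of 19 with 1 library left out, highest adjusted p = 0.0977). Kmo, of tryptophan breakdown, was at 174, 195, 225 and 188 CPM against 35.7 to 57.5 CPM (median 41.7), 4.45-fold lower (adjusted p = 1.46e-12). Gluconeogenesis and fructose genes were called lower in 9 of 10, among them Fbp1 (-2.31 ± 0.21).

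Biosynthesis and detoxification genes were lower in most members. Sterol synthesis was called lower in 17 of 21 (median -0.91), and fatty acid synthesis lower in 9 of 14, with the others not called. Cyp51, the lanosterol demethylase, fell from 484, 483, 505 and 498 CPM to 71.3 to 164 CPM (median 92.9) (-2.26 ± 0.19, adjusted p = 4.75e-10). Antioxidant and NRF2 genes were called lower in 11 of 18 and higher in 4. Cat, the catalase gene, and Sod2, the mitochondrial superoxide dismutase, were 2.95-fold and 2.92-fold lower, and Nfe2l2, which encodes NRF2, was higher (0.62 ± 0.08, adjusted p = 5.36e-07). Gpx3, the secreted glutathione peroxidase and the 1 member moved toward healthy, was at -1.79 in vehicle and -1.24 in zalfermin kidneys, a move kept in 10 of 19 with 1 library left out (highest adjusted p = 0.0816). Of 17 cytochrome P450 genes 12 were called lower and 4 higher. Glycolysis genes were called lower in 9 of 17 and higher in 4, with Hk2, an inducible hexokinase, 18.8-fold higher (4.24 ± 0.44, adjusted p = 2.67e-09).

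**Figure D4:**
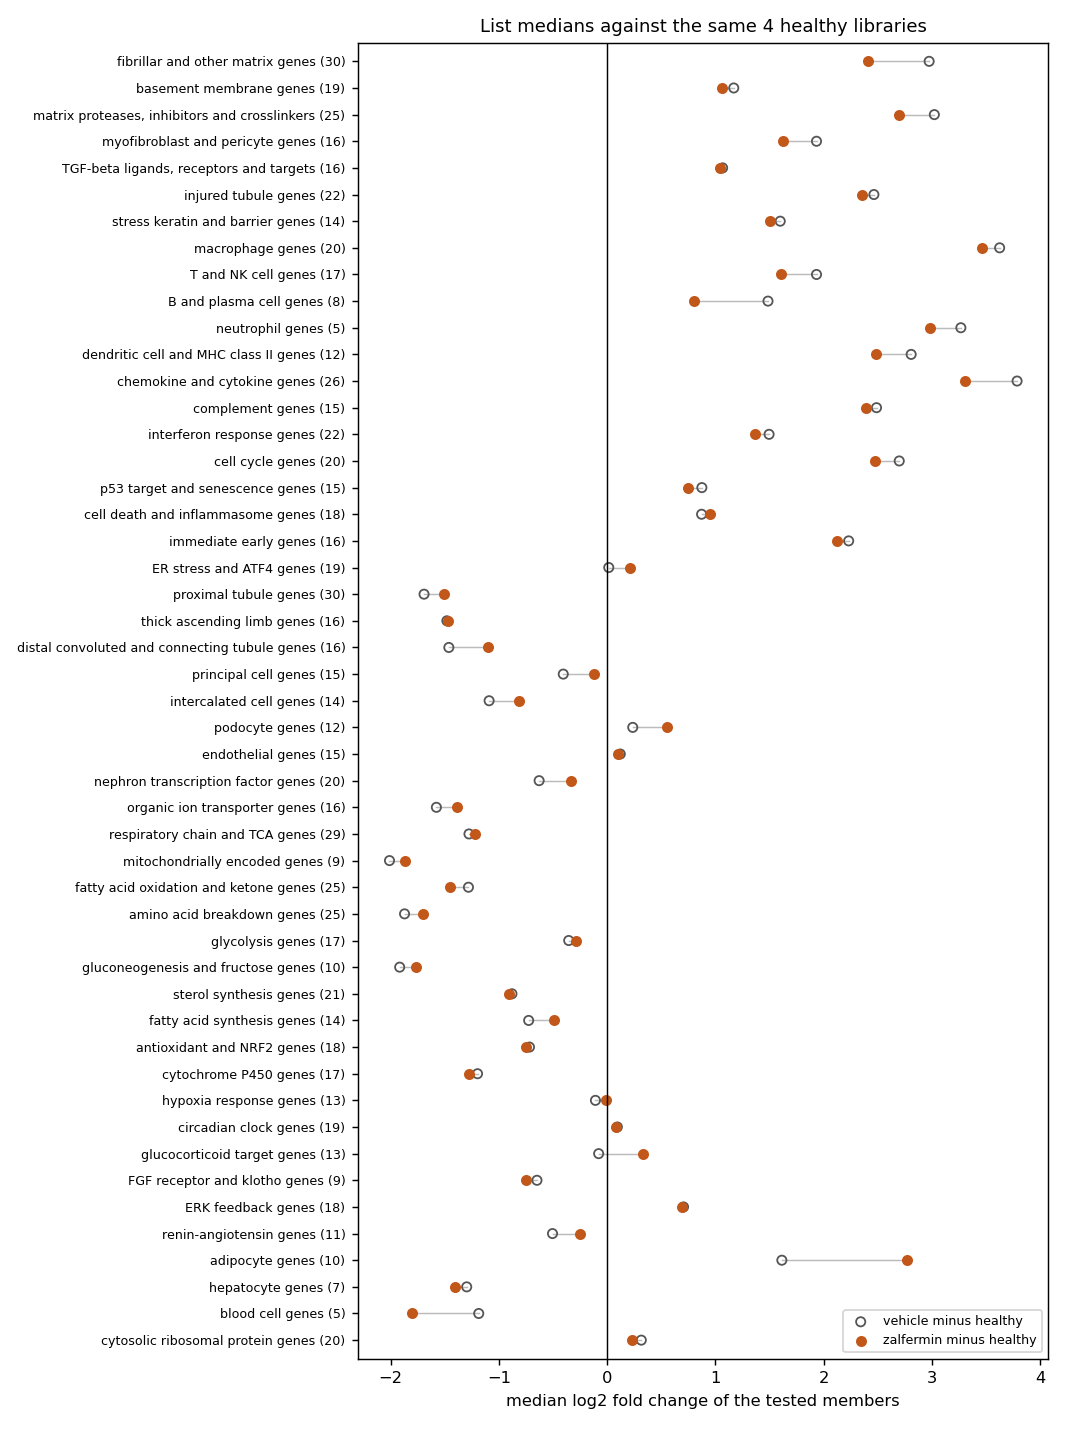
Each row is a gene list (tested members in brackets) with the median log2 fold change of its members against the same 4 healthy libraries, for vehicle (open grey circles) and zalfermin (filled orange circles). The matrix median is 2.97 with vehicle and 2.41 with zalfermin, and the respiratory chain median is -1.28 and -1.22.

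Several of the largest residual rises were in genes nearly silent in healthy kidneys. The 10 largest rises among genes of at least 5 CPM were Sprr2f, Krt20, Cxcl17, Cxcl2, Muc4, Havcr1, Arhgap36, Fcrls, Mmp7 and Lgi2. Cxcl17, a mucosal chemokine, had 939 reads over the zalfermin and 1 over the healthy libraries, a ratio of 481 with a counting interval of 86.2 to 19030. Cxcl2, a neutrophil chemokine, had 1413 and 2 reads (ratio 362, interval 100 to 2992), and Muc4, a membrane mucin, 1376 and 2 reads (ratio 353, interval 97.4 to 2914). The healthy reads of Cxcl17 were in replicate 2 and those of Cxcl2 in replicate 4, and without that library the fitted log2 differences moved from 8.03 to 9.85 and from 7.85 to 10.45. Mmp7, the protease matrilysin, was at 0, 0, 0.0843 and 0.982 CPM in healthy and 26.6 to 50.5 CPM (median 33.6) in treated kidneys. Its fitted log2 difference was 7.18, or 9.94 without healthy replicate 4, and that of Arhgap36 was 7.41, or 8.44 without healthy replicate 3. Fcrls, an Fc receptor-like gene of myeloid cells, was at 0, 0.178, 0.253 and 0.295 CPM and 19.5 to 51.2 CPM (median 26.1). The treated libraries lay above the healthy ones for every one of these, as the choice required.

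The 10 largest falls were Pvalb, Slc22a7, Pzp, Dnase1, Nccrp1, Slc7a13, Dusp15, Slco1a1, Acsm3 and Alb. Dnase1, the secreted nuclease, fell from 884, 1477, 922 and 1203 CPM to 33.5 to 90.9 CPM (median 46.5), 22.4-fold (-4.49 ± 0.22, adjusted p = 2.35e-13). Slc22a7, the organic anion transporter OAT2, was at 224, 403, 266 and 489 CPM and 2.11 to 24.7 CPM (median 8.99) (-5.03 ± 0.57, adjusted p = 8.64e-08), and Slc7a13, an acidic amino acid transporter of the straight proximal tubule, was 19.4-fold lower (adjusted p = 4.89e-09). Alb, the albumin gene, was 8.63, 7.55, 42.8 and 8.54 CPM in healthy kidneys, where replicate 3 held most of it, and 0.256 to 2.06 CPM (median 1.11) in treated ones (-3.88 ± 0.52, adjusted p = 4.63e-07, and -2.84 without healthy replicate 3). The log2 difference of Nccrp1 was -4.31, or -5.11 without zalfermin replicate 8. Among 7 tested hepatocyte genes Fga and Fgb, which encode fibrinogen chains, were called higher and 5 were called lower.

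The move toward healthy was partial in the 173 genes that showed it. Of these, 114 were above and 59 below healthy, and zalfermin kidneys lacked between 9.75% and 67.5% of the vehicle log2 difference (median 28.3%), a description that follows from how the class was chosen. At least 50% was gone in 17 genes, and 119 were still at least 2-fold from healthy. The 8 with the smallest p of the drug difference were Acnat2, Cyp2d26, Acss1, Dpt, Rdh16f2, Col1a2, Mfap4 and Prodh2. Acnat2, an acyl-CoA amino acid transferase, was at 80.95, 78.8, 57.2 and 89.8 CPM in healthy, 27.6 to 40.2 CPM (median 33.4) in vehicle and 47.1 to 65.02 CPM (median 55.0) in zalfermin kidneys. Its residual of -0.46 ± 0.12 was still called (adjusted p = 0.00119), with 3 of 8 treated libraries inside the healthy range. Cyp2d26, a cytochrome P450, was at 159.8, 168, 175 and 164 CPM, 11.1 to 22.8 CPM (median 13.7) and 19.2 to 66.1 CPM (median 36.01) in the same order of groups. It was still 4.49-fold below healthy, and no treated library overlapped with a healthy one. Acss1, a mitochondrial acetate enzyme, and Prodh2, which breaks down hydroxyproline, kept -1.73 and -1.11 of vehicle differences of -2.49 and -1.71. Rdh16f2, a retinol dehydrogenase, was at -0.66 ± 0.23 (adjusted p = 0.015) and would not count as residual without healthy replicate 3 (-0.38, adjusted p = 0.163) or with GC and length offsets (-0.43, adjusted p = 0.0988). With each of the 19 libraries left out in turn, 67 of the 173 kept the class throughout, among them the other 7 of these 8.

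The 27 genes back at the healthy level had small vehicle differences to begin with. With vehicle 6 were above and 21 below healthy, and the largest difference was 0.83 on the log2 scale, so none had been 2-fold away. Vehicle kidneys had 4852 genes at 2-fold or more, of which 4644 were still called with zalfermin and 208 were not, and 2912 had intervals narrow enough to be placed in the band. Akr1c19, an aldo-keto reductase (chromosome 13, 4228700-4252843, plus strand), was at 32.6, 26.6, 35.3 and 34.97 CPM in healthy, 16.1 to 26.6 CPM (median 23.4) in vehicle and 27.6 to 41.1 CPM (median 33.7) in zalfermin kidneys. Its difference from healthy was 0.05 ± 0.13 (95% interval -0.21 to 0.31), and 6 of 8 treated libraries lay inside the healthy range. Mdk, the growth factor midkine, which injured tubules release, came down from 31.6 to 59.2 CPM (median 40.9) in vehicle to 20.8 to 33.6 CPM (median 26.6) with zalfermin, against 20.6, 25.6, 33.05 and 22.98 CPM in healthy kidneys. It too had 6 of 8 libraries in the healthy range (difference 0.08 ± 0.15, 95% interval -0.23 to 0.40). Ipmk, an inositol phosphate kinase, was at -0.06 ± 0.08 (95% interval -0.23 to 0.11), Ptgfr, the prostaglandin F receptor, at -0.15 ± 0.15, and Zfp503, a transcriptional repressor, at -0.07 ± 0.08.

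Of the 27 genes, 8 kept this class with each of the 19 libraries left out in turn, and 17 kept it without vehicle replicate 6. Those 8, chosen after their values were seen, were Akr1c19, Ipmk, Ptgfr and Mdk with Gsta2, a glutathione transferase, Slc2a9, the urate transporter, Srf, the serum response factor, and Zhx3. Without vehicle replicate 6, Wdr72, Tmem52b and Zfp503 were called below healthy (adjusted p = 0.0400, 0.0451 and 0.0373), and without healthy replicate 1 Tmem30b was called above it (adjusted p = 0.0427). DESeq2 on all libraries also called Wdr72, Tmem52b and Zfp503 below healthy (adjusted p = 0.0251, 0.0409 and 0.0410). With the 2 groups fitted alone, edgeR called Wdr72, Tmem52b and Zfp503 below healthy too (adjusted p = 0.0436, 0.02998 and 0.0451). With offsets for GC content and length, Ipmk (-0.24), Ptgfr (-0.38), Srf (-0.33), Zhx3 (-0.48) and Gsta2 (0.44) were called away from healthy as well, whereas Akr1c19, Mdk and Slc2a9 were not. Those offsets also left Zfp503 (-0.33, adjusted p = 9.32e-05) and Wdr72 (-0.26, adjusted p = 0.00705) called below healthy. Over all tested genes, 640 had all 8 zalfermin libraries inside the range of the 4 healthy ones.

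The genes that met the whole rule for a new difference were few, and their differences small. Of the 14, 11 were above and 3 below healthy, and the largest was 0.74 on the log2 scale. Foxo3, a transcription factor of the insulin pathway (chromosome 10, 42181841-42276755, minus strand), was at 106, 92.96, 99.7 and 89.7 CPM in healthy, 78.7 to 109 CPM (median 104) in vehicle and 112 to 156 CPM (median 131) in zalfermin kidneys. The treated kidneys were above healthy by 0.44 ± 0.09 (adjusted p = 2.81e-04) and above vehicle by 0.39 ± 0.08 (adjusted p = 0.00895), and no treated library overlapped with a healthy one. Ocln, the tight junction protein occludin (chromosome 13, 100496507-100552718, minus strand), was at 45.01, 40.4, 44.9 and 37.5 CPM, 39.3 to 48.6 CPM (median 46.8) and 48.2 to 62.1 CPM (median 57.2) in the same groups, 0.42 ± 0.08 above healthy (adjusted p = 1.05e-04), again without overlap. These were the 2 of the 14 that kept the class with each of the 19 libraries left out in turn. With GC and length offsets Foxo3 was at 0.08 against healthy (adjusted p = 0.351), and the drug difference of Ocln at 0.18 (adjusted p = 0.2995).

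Ston2, an endocytic adaptor, was the strongest of the 14 in the drug comparison, at 37.5, 32.2, 37.3 and 31.1 CPM in healthy, 33.4 to 47.7 CPM (median 41.7) in vehicle and 48.2 to 65.9 CPM (median 54.6) in zalfermin kidneys (0.69 ± 0.10 against healthy, adjusted p = 3.83e-06), and it kept the class in 13 of 19 with 1 library left out. Wt1, a podocyte transcription factor, was above healthy by 0.43 ± 0.12 (adjusted p = 0.00421), and its drug difference missed the threshold without vehicle replicate 2 or 7 or zalfermin replicate 4, 5 or 7 (adjusted p = 0.0530 to 0.0633). Tfcp2l1, a collecting duct transcription factor, was at 0.57 ± 0.10 and kept the class in 11 of 19, and with GC and length offsets it lost its call against healthy (0.17, adjusted p = 0.183). Downward, Nfil3, a clock output repressor, was at -0.62 ± 0.18 (adjusted p = 0.00464, and 0.0576 without healthy replicate 2). Tnfrsf21, a death receptor, was above healthy (0.45) but lost its call without healthy replicate 4 (adjusted p = 0.0687). Without vehicle replicate 6, both obstructed groups were called against healthy for Tnfrsf21, in opposite directions. Ralgapa2, also above healthy (0.30), lost its call without healthy replicate 2 (adjusted p = 0.0852), with RLE scaling (0.0798) and with DESeq2 (0.0785). A further 915 genes were called only with zalfermin but could not be shown to be new, since they lacked a called drug difference or vehicle was not within the band. Among these 915, 122 were at least 2-fold from healthy with zalfermin, the largest by 4.85 on the log2 scale, and 36 were with vehicle. Another 8 differed from vehicle alone, Tox3, Myom2, Prlr, Insr, Zfp185, Slc6a6, Fkbp5 and A030001D20Rik, with neither obstructed group called against healthy.

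**Figure D5:**
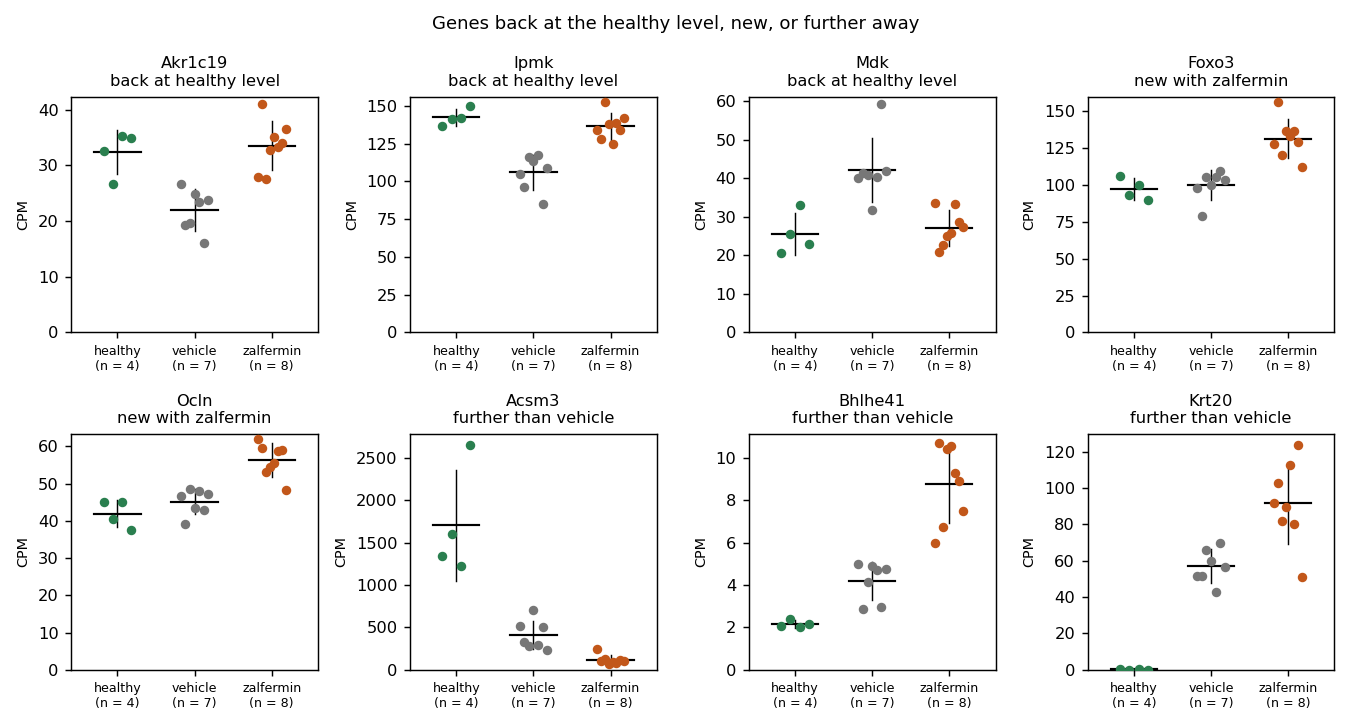
Points are libraries in CPM on linear axes from 0, with the group mean as a horizontal line and 1 SD as a vertical line, for 3 genes back at the healthy level, 2 new with zalfermin and 3 further from healthy than vehicle. The treated libraries for Akr1c19, Ipmk and Mdk lie around the healthy values, the Foxo3 and Ocln means lie above those of both other groups, and the Acsm3, Bhlhe41 and Krt20 means lie beyond the vehicle mean.

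In all, 42 genes were further from healthy with zalfermin than with vehicle, 24 above and 18 below. Below healthy, the 18 included Acsm3, Pzp, Slco1a1, Kap, Lpl, Ace and Cyp7b1. Acsm3, a mitochondrial acyl-CoA synthetase (chromosome 7, 119760923-119787513, plus strand), was at 1338, 1608, 1223 and 2654 CPM in healthy, 229.7 to 707 CPM (median 333) in vehicle and 64.01 to 250.5 CPM (median 104) in zalfermin kidneys. It stood 14.8-fold below healthy (-3.89 ± 0.31, adjusted p = 3.37e-10) and differed from vehicle by -1.83 ± 0.27 (adjusted p = 0.00122). Pzp, a protease inhibitor, was at 112, 119.5, 149 and 141 CPM, 11.7 to 60.5 CPM (median 26.5) and 1.60 to 15.2 CPM (median 4.68) in the same groups, and Slco1a1, an organic anion transporter, differed from vehicle by -1.68 (adjusted p = 0.00663). Kap, the kidney androgen-regulated protein of the proximal tubule, fell from 22160, 30570, 24790 and 33660 CPM to 1604 to 5110 CPM (median 2703) (-3.19 ± 0.25, adjusted p = 1.23e-10). Lpl, which encodes lipoprotein lipase, and Ace, angiotensin-converting enzyme, were 7.78-fold and 3.86-fold below healthy, each with a called drug difference (-1.02 and -0.76). Cyp7b1, a steroid hydroxylase, was -3.33 ± 0.25 from healthy, and its class was kept in 12 of 19 with 1 library left out (highest adjusted p = 0.0691).

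Above healthy, the 24 included Abcc4, Tnfaip3, Cyp27b1, Wee1 and Bhlhe41. Abcc4, an efflux pump for organic anions, was at 47.1, 48.03, 64.6 and 35.6 CPM in healthy, 70.9 to 113 CPM (median 90.9) in vehicle and 125 to 172 CPM (median 139.8) in zalfermin kidneys, and no group overlapped with another. Tnfaip3, the NF-kappaB inhibitor A20, was 6.85-fold above healthy (2.78 ± 0.16, adjusted p = 5.36e-12) after 2.16 with vehicle. Cyp27b1, which activates vitamin D, rose from 2.58, 5.06, 5.82 and 7.46 CPM to 20.2 to 54.7 CPM (median 37.99) (2.85 ± 0.30, adjusted p = 4.86e-08), and its drug difference was 1.06 (adjusted p = 0.0147). Of the 42 genes, 19 kept the class with each of the 19 libraries left out in turn, the named ones except Cyp7b1 and Slc13a1 among them, and 38 kept it without vehicle replicate 6.

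Clock genes had called drug differences in both directions. Of 19, 8 were called above and 5 below healthy with zalfermin, shares near the 37.3% and 27.0% of all tested genes. With vehicle 3 were above and 6 below healthy. Between zalfermin and vehicle 5 were called above and 2 below vehicle, where 1.81% of all tested genes were called. In that last comparison 16 of the 19 had an unadjusted p below 0.05 in edgeR, and DESeq2 called 12. Arntl, the activator BMAL1, was at 50.4, 45.99, 31.4 and 34.9 CPM in healthy, 15.6 to 25.6 CPM (median 22.5) in vehicle and 4.60 to 18.9 CPM (median 9.53) in zalfermin kidneys (-2.03 ± 0.25 against healthy, adjusted p = 1.74e-07). Bhlhe41, the repressor DEC2 (chromosome 6, 145858243-145865558, minus strand), was at 2.05, 2.40, 2.02 and 2.16 CPM, 2.87 to 4.98 CPM (median 4.72) and 6.005 to 10.7 CPM (median 9.12), 4.06-fold above healthy (2.02 ± 0.21, adjusted p = 2.17e-08), and no treated library overlapped with either other group. Dbp, an output activator, was 2.40 ± 0.39 above healthy (adjusted p = 2.88e-05) and 1.61 ± 0.31 above vehicle (adjusted p = 0.00895), and Per1, a period repressor, 1.62 ± 0.24 (adjusted p = 7.42e-06). Such genes swing with the hour of the day. The hour of collection in each group is not stated in the labels, and its part was not tested. Glucocorticoid targets were called higher in 6 of 13 and lower in 2 (median 0.33), where vehicle had 3 and 3 (median -0.08). Against vehicle edgeR called 3 of the 13, with 10 at an unadjusted p below 0.05 and 5 called by DESeq2. One of the 6 was Zbtb16, a corticoid-induced repressor (2.67 ± 0.40, adjusted p = 6.63e-06, and 3.45 without healthy replicate 1).

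Promoter windows of clock genes are shown because BMAL1 acts through the E-box CACGTG, a palindrome searched on both strands. It occurred in 5 of 16 clock genes with a RefSeq window (31.2%), namely Per1, Cry1, Tef, Bhlhe41 and Ciart, and in 1332 of 11888 tested genes (11.2%). The stretches are printed 5′ to 3′ on the gene's strand, with the E-box in capitals, from chr6:145865548-145865593 (minus strand), chr11:69098763-69098808 (plus strand) and chr10:85185089-85185134 (minus strand) of GRCm38.p6.
Bhlhe41: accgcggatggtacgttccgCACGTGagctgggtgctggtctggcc
Per1: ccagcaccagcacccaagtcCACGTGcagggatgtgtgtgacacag
Cry1: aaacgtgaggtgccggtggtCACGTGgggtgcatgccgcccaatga
Bhlhe41 and Per1 were above healthy with zalfermin. Ciart was called at 1.57 (adjusted p = 0.0382), or 2.47 without healthy replicate 4, but lost the call without healthy replicate 1, 2 or 3 (adjusted p = 0.0805, 0.1285 and 0.1057), without zalfermin replicate 2 or 7 (0.0875 and 0.0592) and with edgeR's RLE scaling (0.0516). Cry1, a cryptochrome repressor, was not called (0.06, 95% interval -0.36 to 0.48).

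Klb, the co-receptor gene, was barely detected. It had 10 reads over the 8 zalfermin, 16 over the 7 vehicle and 0 over the 4 healthy libraries, and Fgf21 had 2, 20 and 0, too few for the model. The difference in mean CPM between zalfermin and healthy did not pass the threshold (two-sided exact permutation test over 495 regroupings, p = 0.232 for Klb and 0.515 for Fgf21, adjusted p = 0.464 and 0.515 over the 2 genes). Of 9 tested FGF receptor and klotho genes 3 were called higher, Fgfr1, Fgfr2 and Fgf2, and 5 lower. Against vehicle edgeR called 0 of the 9, with 3 at an unadjusted p below 0.05 and 0 called by DESeq2. Fgfr1 was at 65.9, 56.3, 70.4 and 64.6 CPM in healthy and 79.1 to 98.05 CPM (median 85.7) in treated kidneys (0.42 ± 0.08, adjusted p = 6.91e-05). Kl, the co-receptor alpha-klotho, fell from 1034, 1042, 969 and 1264 CPM to 233 to 456 CPM (median 261), 3.63-fold (-1.86 ± 0.17, adjusted p = 9.10e-10), with no overlap. ERK feedback genes, which FGF receptors induce along with many other signals, were called higher in 14 of 18 and lower in 1. Against vehicle edgeR called 0 of the 18, with 2 at an unadjusted p below 0.05 and 1 called by DESeq2.

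Signs of other tissue in the samples varied between libraries. Adipocyte genes were called higher in 6 of 10 with zalfermin and in 1 of 10 with vehicle, a difference between lists that was not tested. Cidec, a lipid droplet protein, was at 0.267, 0.266, 0.590 and 2.36 CPM in healthy and 0.728 to 18.6 CPM (median 3.36) in treated kidneys (2.85 ± 0.82, adjusted p = 0.00366, and 3.995 without healthy replicate 4). For Cidec 2 of 8 treated libraries lay in the healthy range, and the treated libraries spread over more than 10-fold. The 4 adipocyte markers Adipoq, Plin1, Cidec and Fabp4 summed to 44.7 to 57.3 CPM in healthy libraries. In vehicle libraries they summed to 45.5 to 129 CPM (median 72.7), and in zalfermin libraries to 49.2 to 153 CPM (median 66.3). Between zalfermin and vehicle edgeR called 0 of the 10 adipocyte genes, with 4 at an unadjusted p below 0.05 and 0 called by DESeq2. Blood cell genes were called lower in 5 of 5 tested, with Hba-a1, a haemoglobin chain whose reads a near-identical copy can share, at -1.80 ± 0.46 (adjusted p = 0.00115). Of the 3 skeletal muscle markers Acta1 was called higher (2.40 ± 0.96, adjusted p = 0.00995, and 3.71 without healthy replicate 3), with 58 reads over the zalfermin and 4 over the healthy libraries (ratio 7.43, counting interval 2.75 to 28.2), Ckm was at 0 in all zalfermin libraries, and Myh4 was at 0 in both groups. Cytosolic ribosomal protein genes were called higher in 6 of 20, below the 37.3% of all tested genes, and the others were not called. Rpl3 was at 0.48 ± 0.10.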

How the data were processed

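Read counts per gene for 19 whole-kidney libraries (total RNA, with groups taken from the labels) were used as deposited. Per the labels' protocols, RNA was extracted with NucleoSpin kits and libraries were made with the NEBNext Ultra II Directional kit and sequenced on NextSeq instruments, and the submitters' processing notes name STAR 2.7.0f and the build GRCm38. The program that made the deposited counts, its use of strand and its gene annotation are not stated, so overlapping, antisense and near-identical genes are uncertain. Libraries held 12209122 to 14844103 counts over 55536 genes, and no value column was left unused.

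Counts were fitted with edgeR 4.0.16 (R 4.3.3) in 1 model over the 3 groups, after filterByExpr (minimum count 10, minimum total 15) and TMM scaling. This kept 16026 genes and set aside 39510, which held 0.115% of the counts. Contrasts were tested with the two-sided quasi-likelihood F test and Benjamini-Hochberg adjustment at 0.05, and every adjusted p of a gene in the model comes from it unless another tool is named. Standard errors and 95% intervals are Wald. A gene was placed within the healthy band where its 95% interval lay inside 1.5-fold. Klb and Fgf21, below the filter, were compared by an exact permutation test. Ratios with few reads carry exact binomial intervals, and these and the floor of 3 reads cover counting error only. The scripts were tested on simulated data.

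The members, gene lists and tests were chosen with earlier results of these data known, and lists get counts and medians but no test. Named were, among called genes of at least 5 CPM without overlap, the 10 largest rises and 10 largest falls; for each list the 2 members of the larger direction and the 1 of the other with the smallest p; 21 sentinel genes; and the 8 genes with the smallest drug p in each of 4 classes. Others, such as list members moved toward healthy, members that were not called and genes that kept their class with each library left out, were named after their values were seen. A few genes that the rule names are not reported here. Promoter windows are from RefSeq (GRCm38.p6). Alternatives were other scalings (RLE, upper quartile), other tools (DESeq2 1.42.0, and voom with quality weights from limma 3.58.1), other filters, a robust fit, GC and length offsets, a fit of the 2 groups alone, a threshold of 0.01, a narrower and a wider band, and leaving out each library in turn.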

Additional observations from a re-analysis of the deposited data

Results flagged for a closer look

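Over 300 groups of 4 to 8 values, for the 146 genes named here and 4 library measures, 34 had a library set apart from the rest of its group by more than Dixon's 95% critical gap. Chance flags about 1 in 20 groups only where values follow a normal distribution, which was not tested for these CPM values. A group with reads in a single library is always flagged, as for Agtr2, Cxcl17 and Cxcl2 in healthy kidneys. The 34 are therefore not read as an excess. Among the healthy libraries, replicate 4 was the highest for Ccl2 (1.08 CPM, next 0.444), Cidec (2.36 CPM, next 0.590), Cxcl2 (0.196 CPM, the others 0), Havcr1 (15.9 CPM, next 6.49), Lpl (2279 CPM, next 1009), Mmp7 (0.982 CPM, next 0.0843), Slco1a1 (800.9 CPM, next 331), Timp3 (3084 CPM, next 2392) and Wee1 (20.4 CPM, next 12.5). Healthy replicate 1 was the highest for Agtr2 (0.178 CPM, the others 0), Gata3 (21.4 CPM, next 15.3), Per1 (18.6 CPM, next 11.04) and Zbtb16 (6.32 CPM, next 1.96), and the lowest for Srf (23.04 CPM, next 26.6). Healthy replicate 2 was apart for Cxcl17 (0.0888 CPM, the others 0) and Umod (6666 CPM, next 5909), and healthy replicate 3 for Alb (42.8 CPM, next 8.63).

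Every zalfermin library set apart was the highest of its group. Replicate 1 stood apart for Acsm3 (250.5 CPM, next 127), Pzp (15.2 CPM, next 5.48) and Slco1a1 (58.9 CPM, next 28.96), all 3 further from healthy than with vehicle, and in each it lay nearer to healthy than the other 7. Replicate 2 was apart for Hif3a (5.49 CPM, next 2.69), Tnfrsf21 (514 CPM, next 378) and Zhx3 (134 CPM, next 109). Replicate 3 was apart for Fgb (86.3 CPM, next 52.8) and Slc13a1 (1024 CPM, next 832), and replicate 4 for Fcrls (51.2 CPM, next 32.7). Replicate 6 was apart for Cd74 (1585 CPM, next 1115) and Gsdmd (24.9 CPM, next 20.1), and replicate 7 for Hba-a1 (36.05 CPM, next 22.3) and Sprr2f (32.98 CPM, next 12.3). Replicate 8 was apart for Acta2 (223 CPM, next 138), Dnase1 (90.9 CPM, next 60.7), Nccrp1 (18.96 CPM, next 4.89) and Ptgfr (51.8 CPM, next 38.7).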

How the results depend on the processing

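The counts of genes higher and lower than healthy, of genes still away and of lists with most members called stayed within 1.5 times their value under the other settings in which they were computed (29, or 28 for genes still away). The classes that rest on the drug difference did not. Genes moved toward healthy numbered 44 at a threshold of 0.01, 378 with DESeq2, 758 with voom quality weights and 267 with GC and length offsets, and 83 to 342 with 1 library left out. Under the same 4 settings, genes further from healthy numbered 10, 87, 144 and 76 (20 to 61 with 1 library left out), genes back at healthy 6, 44, 76 and 43 (15 to 43) and new genes 2, 33, 50 and 30 (6 to 27). The narrower band left 8 genes back and 6 new. The cause was not tested. The median of the FGF receptor and klotho genes turned from -0.75 to 0.20 (0.1987) with no filter, which adds members with few reads, and Ralgapa2 turned from 0.30 to -0.14 with GC and length offsets (adjusted p = 0.296), the cause of which was not tested.

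Of 189 named genes called against healthy, 173 stayed called, in the same direction, in every setting. RLE scaling moved the median over tested genes from 0.13 to 0.03 and the share of calls that were higher from 58.0% to 51.4%. Without vehicle replicate 6 that share was 53.4%, and with the 2 groups fitted alone 52.9%. No paired analysis was possible because the labels tie no library of one group to a library of another. At this depth 12561 genes (78.4%) had intervals narrow enough to lie within the 1.5-fold band, and for the rest a return to healthy could not be shown.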

Other observations

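Hypoxia genes, not described above, had no common direction with zalfermin. Of 13 tested, 3 were called higher and 6 lower than healthy. The oxygen-regulated subunits Hif1a (0.47 ± 0.16, adjusted p = 0.0168), Epas1 (0.28 ± 0.12, adjusted p = 0.0491) and Hif3a (2.004 ± 0.49, adjusted p = 9.89e-04) were the 3 called higher. Among the 6 lower were the targets Bnip3, of mitochondrial clearance, and Pdk1, which holds pyruvate back from the mitochondria, and both had moved toward healthy. Bnip3 was at -1.004 with vehicle and -0.65 with zalfermin, and Pdk1 at -0.80 and -0.41. With 1 library left out these drug differences reached adjusted p values of 0.0529 and 0.0634.

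In the renin-angiotensin system 2 of 11 genes were called higher than healthy (Agt and Agtr2) and 5 lower. Agtr2, the second angiotensin receptor, had healthy reads in replicate 1 alone, and its log2 difference was 3.32, or 5.92 without that library. The call of Agtr2 was lost without healthy replicate 2, 3 or 4 or zalfermin replicate 5 (adjusted p = 0.05101 to 0.07605). Ace was lower, as given above, and Agtr1a, the main angiotensin receptor, was at -0.50 ± 0.14 (adjusted p = 0.00293). Ren1, which encodes renin, was not called (0.07 ± 0.20, 95% interval -0.35 to 0.48).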
